A study of Mus musculus with 8 samples.

Results

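Peripheral members of the major urinary protein (Mup) family, Mup3, Mup4, Mup5, Mup6, Mup20 and Mup21, were examined in mouse liver RNA-seq. They are 6 of the 52636 genes in the deposited tables and were chosen by symbol, as the diverged genes at the 2 edges of the Mup cluster, and not by their levels. Earlier results of these data were known when the members and the gene lists below were chosen. The other 15 numbered Mup genes of the tables, the near-identical copies between the edges, served as their comparison, and 27 Mup pseudogenes were kept apart. Liver was taken from C57BL/6 mice of 8 weeks in 2 groups of 4 libraries. The cKO group has the genotype CTCF fl/fl Albcre+, in which Cre recombinase from an albumin-driven transgene, a hepatocyte promoter, recombines floxed alleles of Ctcf, the gene of an architectural DNA-binding protein. The WT group has the genotype CTCF fl/fl Albcre-, so that both groups carry the floxed alleles and no library carries Albcre without them. An effect of the Cre and an effect of the lost Ctcf cannot be told apart here. The labels give neither sex nor whether the replicates were separate mice, so that the p-values measure the spread between these libraries. In whole liver, fewer cells of a type and less RNA per cell cannot be told apart.

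Major urinary proteins are small secreted lipocalins, barrel-shaped carriers that hold pheromones and other hydrophobic molecules. The liver is their main source, and they pass from blood into urine, where they act in scent communication. Their liver expression is known to rise with testosterone and with pulsatile growth hormone acting through STAT5, which makes them typical male-biased liver genes. Mup20 encodes darcin, a male pheromone to which females respond. Mup4 is known from nasal tissue and Mup5 from salivary glands.

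The members lie on chromosome 4 within a cluster that spans 2.19 megabases of GRCm38.p6, the RefSeq assembly that corresponds to mm10. Among the 22 numbered Mup genes that RefSeq places there, Mup4 is first (chr4:59956804-59960667) and Mup6 second (chr4:60003481-60007274). At the other edge Mup5 (chr4:61831319-61858043), Mup20 (chr4:62011337-62054143), Mup3 (chr4:62083476-62087317) and Mup21 (chr4:62147832-62150841) are numbers 19 to 22. The Ensembl gene identifiers in the tables are ENSMUSG00000066154 for Mup3, ENSMUSG00000078672 for Mup20, ENSMUSG00000066153 for Mup21 and ENSMUSG00000078689 for Mup6. Those of Mup4 and Mup5 are ENSMUSG00000041333 and ENSMUSG00000058523. Mup22, which lies in the middle of the cluster in RefSeq, was not analysed here.

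The stretch of coding sequence below shows what separates these genes from the central copies, on which the assignment of their reads rests. It is the 90-base stretch, bases 101 to 190 of the 543-base coding sequence of Mup7, in which the 6 members together differ most from Mup7, taken as the example of a central copy. Sequences were read from the GENCODE M1 transcripts, capitals mark bases that differ from Mup7, and Mup11 is shown as a second central copy.
Mup3: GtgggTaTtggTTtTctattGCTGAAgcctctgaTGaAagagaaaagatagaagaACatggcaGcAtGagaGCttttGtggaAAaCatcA
Mup21: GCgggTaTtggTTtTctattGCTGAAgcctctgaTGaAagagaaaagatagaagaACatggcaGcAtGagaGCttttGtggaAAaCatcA
Mup20: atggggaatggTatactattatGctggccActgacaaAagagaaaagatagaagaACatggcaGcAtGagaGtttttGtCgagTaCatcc
Mup5: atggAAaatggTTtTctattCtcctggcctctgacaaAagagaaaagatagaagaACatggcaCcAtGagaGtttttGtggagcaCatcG
Mup4: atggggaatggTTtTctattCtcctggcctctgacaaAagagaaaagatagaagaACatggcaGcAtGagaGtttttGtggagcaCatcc
Mup6: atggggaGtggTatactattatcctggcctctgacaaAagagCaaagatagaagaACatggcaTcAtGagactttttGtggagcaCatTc
Mup11: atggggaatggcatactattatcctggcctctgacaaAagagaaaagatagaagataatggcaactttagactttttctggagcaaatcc
Mup7: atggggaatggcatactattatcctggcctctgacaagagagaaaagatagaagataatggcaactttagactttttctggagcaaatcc

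Within this stretch Mup21 differed from Mup7 at 28 positions, Mup3 at 27, Mup5 at 16, Mup20 at 14, Mup4 at 13 and Mup6 at 12, against 1 position for Mup11. Over the whole coding sequence the differences numbered 87 for Mup21, 85 for Mup3, 66 for Mup4, 60 for Mup6, 56 for Mup5 and 52 for Mup20, against 7 for Mup11. Coding identity to the other 15 Mup genes ranged from 85.2% to 86.2% for Mup3 and from 84.2% to 85.1% for Mup21. It ranged from 90.6% to 91.5% for Mup20, from 89.7% to 90.6% for Mup5, from 89.4% to 90.4% for Mup6 and from 88.8% to 89.8% for Mup4. The 15 other genes were 98.3% to 100% identical among themselves, with a median of 99.3% over 105 pairs. Mup3 and Mup21 were the closest pair of members in coding sequence, at 96.3% identity, and Mup4 and Mup5 shared 93.1%.

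These differences leave stretches that occur in a single gene. Of the 100-base stretches in its transcripts, 100% of those of Mup4, Mup6 and Mup20 occurred in no other GENCODE M1 coding gene's transcripts, as did 98.7% for Mup5 and 95.5% for Mup21, against a median of 16.4% over the 15 other Mup genes (range 0 to 35.5%). Mup3 stood at 56.0%, because 1 of the 3 transcripts that the tables list under Mup3 belongs to Mup15 in GENCODE M1. With that transcript placed in Mup15, the share for Mup3 was 97.3%. The weight of that transcript in the Mup3 estimates can be bounded from the mean transcript length that the tables give for Mup3. If that transcript had its GENCODE M1 length of 813 bases, it made up at most 10.4% to 10.8% of Mup3 transcripts in the cKO libraries and at most 10.2% to 10.6% in the WT libraries. The estimated counts of Mup4, Mup5 and Mup6 were whole numbers, within 0.005, in all 8 libraries, as they are when no read is shared out between genes. Those of Mup20 were whole in 4 of 4 cKO libraries and in 0 of 4 WT libraries. Mup3, Mup21 and each of the 15 other Mup genes had whole counts in 0 of 8 libraries, so that part of their reads was divided by the estimation software.

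The promoter windows of RefSeq (GRCm38.p6, 250 bases before to 50 after each start) are shown to set the edge genes, which differ in liver level, beside a central copy. They were found for 4 of the 6 members, Mup3, Mup4, Mup6 and Mup21, and for 10 of the 15 other Mup genes, of which Mup11 is printed. Capitals mark 2 kinds of match: the TATA box, searched as the letters TATAAA, and the core motif of HNF6 (Onecut1), a liver transcription factor, searched as ATTGATT, which reads AATCAAT when it lies on the opposite strand.
Mup3, chr4:62087268-62087567, minus strand: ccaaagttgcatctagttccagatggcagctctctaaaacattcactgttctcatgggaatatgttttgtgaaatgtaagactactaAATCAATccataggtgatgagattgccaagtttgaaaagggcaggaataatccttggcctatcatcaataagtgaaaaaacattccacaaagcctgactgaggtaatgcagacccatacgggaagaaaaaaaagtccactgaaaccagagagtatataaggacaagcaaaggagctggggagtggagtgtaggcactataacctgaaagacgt
Mup21, chr4:62150792-62151091, minus strand: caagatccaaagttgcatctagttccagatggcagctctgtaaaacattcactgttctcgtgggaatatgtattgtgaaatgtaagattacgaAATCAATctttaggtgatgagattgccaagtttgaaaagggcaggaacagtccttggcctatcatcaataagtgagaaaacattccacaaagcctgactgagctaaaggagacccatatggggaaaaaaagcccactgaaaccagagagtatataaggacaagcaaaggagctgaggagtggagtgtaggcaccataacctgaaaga
Mup4, chr4:59960618-59960917, minus strand: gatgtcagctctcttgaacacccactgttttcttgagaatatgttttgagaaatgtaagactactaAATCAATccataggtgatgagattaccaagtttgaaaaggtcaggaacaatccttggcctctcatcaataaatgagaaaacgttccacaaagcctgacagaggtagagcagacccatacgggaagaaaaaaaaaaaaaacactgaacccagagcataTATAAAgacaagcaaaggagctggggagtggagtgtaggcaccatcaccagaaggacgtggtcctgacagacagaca
Mup6, chr4:60003231-60003530, plus strand: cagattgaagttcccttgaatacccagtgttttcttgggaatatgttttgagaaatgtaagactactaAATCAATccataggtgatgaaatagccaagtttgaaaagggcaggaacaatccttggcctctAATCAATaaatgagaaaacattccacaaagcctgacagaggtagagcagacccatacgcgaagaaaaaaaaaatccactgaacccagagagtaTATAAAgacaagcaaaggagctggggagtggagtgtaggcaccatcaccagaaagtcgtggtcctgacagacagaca
Mup11, chr4:60662346-60662645, minus strand: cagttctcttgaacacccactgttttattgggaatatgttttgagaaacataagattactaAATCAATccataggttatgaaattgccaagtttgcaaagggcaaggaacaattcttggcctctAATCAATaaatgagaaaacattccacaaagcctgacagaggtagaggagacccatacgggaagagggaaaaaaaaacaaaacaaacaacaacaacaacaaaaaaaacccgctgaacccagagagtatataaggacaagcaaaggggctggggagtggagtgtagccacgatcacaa

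Searched on both strands, ATTGATT was present in 14 of 14 Mup windows and in 2.86% of the 32851 RefSeq promoter windows of the same length. Mup3, Mup4 and Mup21 had 1 match each, and Mup6 and the 10 other Mup genes had 2, so that 3 of the edge genes lack the second copy. TATAAA stood in the windows of Mup4 and Mup6, against 13.6% of all windows, and the other Mup windows did not have these letters. At the same place the printed windows of Mup3, Mup21 and Mup11 read TATAAG, within TATATAAGG. The search for exact letters therefore does not show that these windows lack a TATA box. The STAT5 motif TTCNNNGAA was in 0 of 14 Mup windows (8.30% of all), the C/EBP palindrome TTGCNNAA in 0 of 14 (10.8% of all), a CTCF core motif in 0 of 14 (2.43% of all) and CCAAT in 6 of 14 (37.4% of all). In Mup11 CCAAT began at position 27 of the window and the first ATTGATT match at 62. In Mup2, Mup9, Mup10 and Mup19 that match began at 34, 31, 33 and 35, so the place of CCAAT lies outside their windows. These near-copies are not independent sequences, and the matches describe letters only. Mup3 and Mup21 were 93.9% identical over their windows, and Mup4 and Mup6 93.0%, whereas Mup3 and Mup4 were 89.2% identical.

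Depth ranged from 50.3 to 57.3 M estimated counts (M, 1e6) in the cKO libraries and from 43.9 to 50.4 M in the WT libraries. Of the 52636 genes, 15562 passed the filter on low counts and were tested. Ctcf itself had 12.0, 13.1, 12.7 and 10.9 CPM, counts scaled to library size, in the cKO libraries, against 16.8, 16.9, 16.3 and 16.0 CPM in the WT libraries. That is a log2 change of -0.44 ± 0.08 (SE) with an adjusted p of 0.00177, by edgeR's quasi-likelihood test with Benjamini-Hochberg adjustment over all tested genes, the test used for every adjusted p below unless another is named. These are counts over the whole gene, and cells without the Cre keep Ctcf. On TPM, transcripts per 1e6, the Ctcf values of the groups overlapped and the change on log2(TPM + 1) was -0.15 (limma, adjusted p = 0.123). Xist stood at no more than 0.283 CPM and Ddx3y, a Y-linked gene, at 11.4 CPM or more in each of the 8 libraries. By these genes each of the 8 libraries reads as male, though the labels give no sex. Of all tested genes, 14.9% were called lower and 15.2% higher in cKO at an adjusted p under 0.05, 2322 and 2367 genes. With library size alone as the scaling, the split was 1318 lower and 3604 higher, and the median of all genes moved to 0.099 on the log2 scale, against -0.01.

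Of the 6 peripheral genes 4 were expressed well enough to be tested, and these 4 were lower in cKO livers, against 14.9% of all tested genes. Their fall was 2.67-fold for Mup3, 2.29-fold for Mup20, 5.81-fold for Mup21 and 2.71-fold for Mup6 in mean CPM. The 2 remaining genes, Mup4 and Mup5, had at most 1 count in any library. The 15 other Mup genes were in sum 10.7-fold lower. Among all tested genes, 1.75% were called lower and at least 2-fold down.

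**Figure D1:**
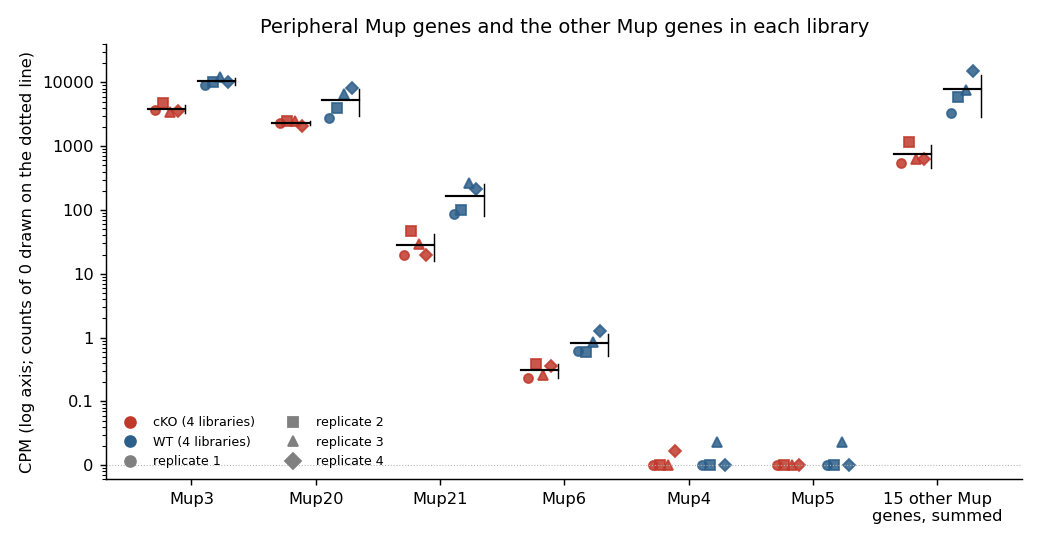
CPM on a log axis for the 6 peripheral Mup genes and for the 15 other Mup genes summed, with cKO libraries in red to the left and WT libraries in blue to the right, symbols for replicate numbers, lines at the means and vertical bars of 1 SD. Mup3, Mup20, Mup21, Mup6 and the sum have every cKO library below every WT library, and Mup4 and Mup5 lie on or near 0 in both groups.

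Mup3 was the most abundant member. It had 3683, 4767, 3471 and 3599 CPM in the cKO libraries, against 9122, 10057, 12014 and 10201 CPM in the WT libraries. All 4 cKO libraries were below all 4 WT libraries, as for 15.6% of all tested genes. The means were 3880 ± 598 CPM in cKO and 10349 ± 1209 CPM in WT (SD, n = 4 each), and the log2 change was -1.42 (95% interval -1.65 to -1.18, adjusted p = 2.53e-05). Per length, Mup3 averaged 6174 ± 789 TPM in cKO and 14503 ± 1575 TPM in WT. It ranked between 21 and 27 among all genes by TPM in the cKO libraries and between 9 and 12 in the WT libraries. The call and its direction held under each of the 24 alternatives tried.

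Mup20, the gene of the pheromone darcin, had 2327, 2510, 2450 and 2100 CPM in the cKO libraries, against 2811, 3948, 6607 and 8176 CPM in the WT libraries. The cKO libraries lay close together and all below the WT libraries, which spread widely: the coefficient of variation was 7.72% in cKO and 45.4% in WT. The lowest WT library, replicate 1, was near the cKO range. The means were 2347 ± 181 CPM in cKO and 5385 ± 2448 CPM in WT (SD, n = 4 each), a log2 change of -1.20 ± 0.32 (SE) with an adjusted p of 0.0273. This call was less stable than that of Mup3. It was lost without any 1 of the 4 cKO libraries (adjusted p 0.0619 to 0.0857) and without WT replicate 3 (adjusted p = 0.0724), with log2 changes of -1.22 to -1.09. It was also lost with no filter on low counts (adjusted p = 0.0725), with limma on log2(TPM + 0.1) (adjusted p = 0.0593) and with limma on log2(TPM + 1) and no filter (adjusted p = 0.117). With the replicate number added to the fit as a block, the log2 change was -1.08 and the call was lost (adjusted p = 0.0807). On TPM the groups overlapped, since cKO replicate 3 had 3991 TPM and WT replicate 1 had 3923 TPM.

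Mup21, the outermost gene of the cluster beside Mup3, was expressed at a far lower level and fell the most among the members. It had 19.5, 46.5, 29.0 and 19.4 CPM in the cKO libraries, against 85.7, 101, 265 and 212 CPM in the WT libraries. The groups did not overlap, and both were spread, by 2.40-fold from lowest to highest in cKO and by 3.10-fold in WT. The means were 28.6 ± 12.8 CPM in cKO and 166 ± 87.0 CPM in WT (SD, n = 4 each), and the log2 change was -2.54 ± 0.51 (SE, adjusted p = 0.0125). Per length, Mup21 averaged 67.9 ± 28.4 TPM in cKO and 348 ± 179 TPM in WT.

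Mup6, at the opposite edge and on the plus strand, was close to the limit of detection. It had 12, 20, 14 and 21 counts in the cKO libraries, against 30, 25, 37 and 55 counts in the WT libraries. These counts do not overlap between the groups, although 20 and 21 counts in cKO stand near the 25 counts of WT replicate 2. The means were 0.307 ± 0.0748 CPM in cKO and 0.835 ± 0.324 CPM in WT (SD, n = 4 each), with a log2 change of -1.43 ± 0.31 (SE, adjusted p = 0.00618). With a minimum of 1 CPM in 4 libraries Mup6 was not tested.

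Mup4 and Mup5 were not detectable beyond single reads at this depth. Mup4 had 0, 0, 0 and 1 counts in the cKO libraries, against 0, 0, 1 and 0 counts in the WT libraries. Mup5 had 0 counts in all 4 cKO libraries, against 0, 0, 1 and 0 counts in the WT libraries. A count of 0 allows up to 3 counts, which is 0.0511 to 0.0575 CPM in the cKO libraries and 0.0612 to 0.0708 CPM in the WT libraries, for counting error only. No fold is given for these genes. Of 12 salivary and lacrimal gland markers, 8 had 0 counts in every library, among them Smr3a and Bpifa2, and 0 of the 1 tested was called.

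In TPM, a level per length, the order Mup3, Mup20, Mup21, Mup6 was the same in each of the 8 libraries. Mup3 and Mup20, the nearest neighbours in this order, ranged from 5680 to 7350 TPM and from 3422 to 3991 TPM in cKO. In WT they ranged from 12776 to 16598 TPM and from 3923 to 11459 TPM, so that the ranges of these genes did not overlap in either group. Mup6 averaged 0.487 ± 0.115 TPM in cKO and 1.17 ± 0.453 TPM in WT. Mup4 and Mup5 were listed at no more than 0.0300 TPM.

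The 15 other Mup genes together had 546, 1170, 636 and 629 CPM in the cKO libraries, against 3348, 5904, 7492 and 15106 CPM in the WT libraries. The groups did not overlap, and the WT libraries differed among themselves by 4.51-fold. The means were 745 ± 286 CPM in cKO and 7962 ± 5059 CPM in WT (SD, n = 4 each), and the log2 change of the sum was -3.42 ± 0.54 (SE, adjusted p = 0.00525). Singly, 14 of the 15 genes were called lower, against 14.9% of all tested genes, with a median log2 change of -3.73 over the 15 and -0.01 over all genes. Without cKO replicate 3 or cKO replicate 4, 8 of the 15 were called lower, and without cKO replicate 1, 10. The changes ranged from -6.85 for Mup15 to -0.71 for Mup18, which was not called (adjusted p = 0.389). Mup10 was called at -1.04 ± 0.20 (SE, adjusted p = 0.00702), a smaller fall than that of any tested peripheral gene. Without WT replicate 4 the log2 change of Mup15 was -4.82, and without cKO replicate 3 or cKO replicate 4 its call was lost. Values of single central copies rest on how reads shared among them were divided. The summed counts of these copies were not whole either, so that some reads were also divided between the sum and genes outside it. The summed counts of the peripheral genes were whole in every cKO library, at 314992, 381802, 322021 and 335579. Since Mup4, Mup5, Mup6 and Mup20 were whole there, the fractions of Mup3 and Mup21 offset each other in the cKO libraries. This is what is seen when reads are divided only between Mup3 and Mup21. In WT replicates 1, 3 and 4 the summed counts of the peripheral genes were not whole.

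**Figure D2:**
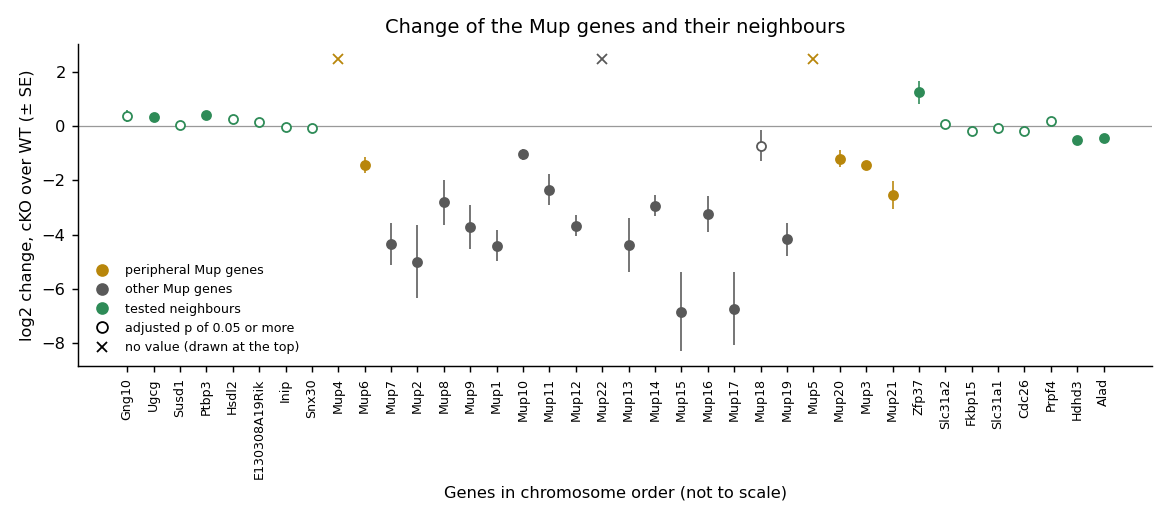
Log2 change in cKO over WT with its standard error for each Mup gene and for 8 tested neighbours on each side, in chromosome order, with filled points for adjusted p under 0.05 and crosses for genes with no value. Mup6, Mup20 and Mup3 lie between -1.43 and -1.20, and most central copies lie lower. Mup21, at -2.54, lies within the range of the central copies, and the neighbours lie between -0.50 and 1.25.

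Within each library, the members were set against the other Mup genes as a log2 ratio of counts, which needs no scaling between libraries. The log2 ratio of Mup3 to the summed other Mup genes was 2.75, 2.03, 2.45 and 2.52 in the cKO libraries, against 1.45, 0.77, 0.68 and -0.57 in the WT libraries. Every cKO ratio was above every WT ratio, and the difference was 1.85. For Mup20 the ratio was 2.09, 1.10, 1.95 and 1.74 in the cKO libraries, against -0.25, -0.58, -0.18 and -0.89 in the WT libraries, a difference of 2.19 with no overlap. In linear terms, the count of Mup20 was 2.15 to 4.26 times that of the other Mup genes together in cKO and 0.541 to 0.882 times in WT.

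The ratio of Mup6 to the other Mup genes was -11.22, -11.57, -11.26 and -10.78 in the cKO libraries, against -12.42, -13.29, -13.11 and -13.52 in the WT libraries, a difference of 1.87 with no overlap. That of Mup21 was -4.81, -4.65, -4.45 and -5.02 in the cKO libraries, against -5.29, -5.87, -4.82 and -6.15 in the WT libraries. Here WT replicate 3 stood among the cKO values, and the difference was 0.80. In a two-sided exact permutation test over the 70 assignments of 8 libraries, p was 0.0286 for Mup3, Mup20 and Mup6, the smallest it can give, and 0.0571 for Mup21. Without any 1 of the 4 cKO libraries the exact permutation p of Mup3 was 0.0571, and without WT replicate 3 that of Mup21 was 0.0286. Adjusted over the 10 ratios computed, which include the 6 between members, those p-values were 0.0571 and 0.0816 by the same exact permutation test.

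**Figure D3:**
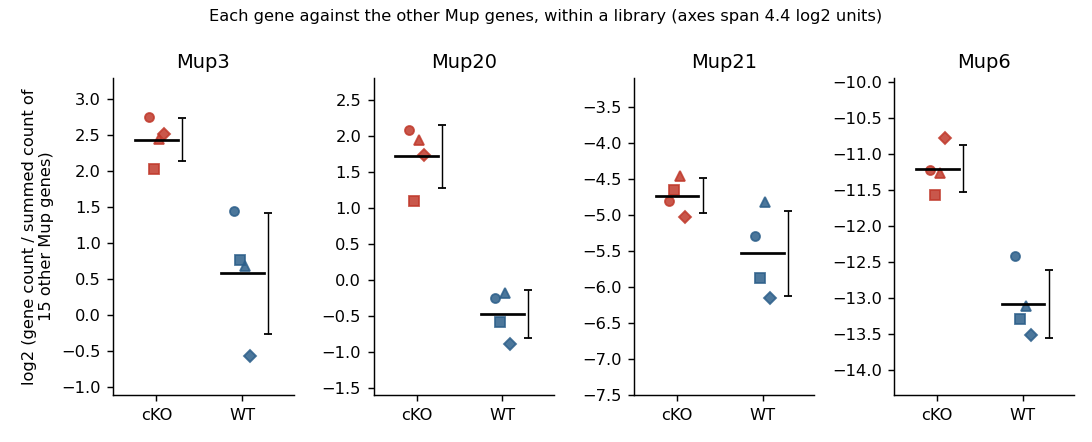
Log2 ratio of the count of each gene to the summed count of the 15 other Mup genes in each library, cKO in red and WT in blue, with lines at the means and bars of 1 SD, on axes of equal span. The cKO libraries lie above the WT libraries for Mup3, Mup20 and Mup6, and the groups overlap for Mup21.

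The members were also set against each other. The log2 ratio of Mup20 to Mup21 was 6.90, 5.76, 6.40 and 6.76 in the cKO libraries, against 5.04, 5.29, 4.64 and 5.27 in the WT libraries, a difference of 1.40 (exact permutation p = 0.0286, 0.0571 adjusted over the 10 ratios). The ratio of Mup6 to Mup21 was 1.08 higher in cKO, with the same exact permutation p-values, and that of Mup3 to Mup21 was 1.06 higher with overlapping groups (exact permutation p = 0.0571, adjusted 0.0816). None of these differences passes 0.05 after adjustment. No difference was shown among Mup3, Mup20 and Mup6: the ratio of Mup3 to Mup20 differed by -0.34 (exact permutation p = 0.343), that of Mup3 to Mup6 by -0.02 (p = 0.943) and that of Mup6 to Mup20 by -0.32 (p = 0.257).

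The share of Mup RNA that came from the peripheral genes was higher in cKO livers. The 6 members together made up 91.7%, 86.2%, 90.3% and 90.1% of the Mup counts in the cKO libraries, against 78.2%, 70.5%, 71.6% and 55.2% in the WT libraries. The groups did not overlap, and WT replicate 4 had the lowest share. Mup20 alone made up 33.8% ± 3.30 of Mup counts in cKO and 21.8% ± 3.33 in WT, and Mup3 made up 55.4% ± 1.81 in cKO and 46.4% ± 12.2 in WT (SD, n = 4 each). The shares of Mup3 overlapped between the groups, at 52.7% to 56.7% in cKO and 30.3% to 59.4% in WT. Per length, the members' share of Mup TPM was 88.0% ± 2.45 in cKO and 66.9% ± 9.78 in WT. Of all counts in a library, the members took 0.648% ± 0.0703 in cKO and 1.53% ± 0.316 in WT, and all 21 numbered Mup genes took 0.725% ± 0.0977 in cKO and 2.30% ± 0.752 in WT.

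**Figure D4:**
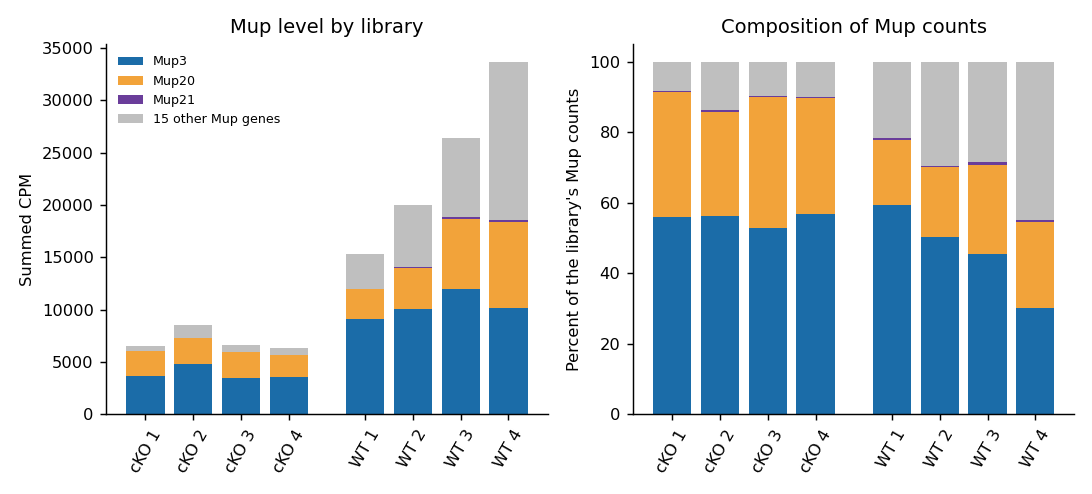
Left, summed CPM of the Mup genes in each library, stacked as Mup3, Mup20, Mup21 and the 15 other Mup genes, and right, the same as percent of the Mup counts of the library, cKO libraries first. The other Mup genes make up 8.31% to 13.8% of Mup counts in cKO and 21.8% to 44.8% in WT, and Mup4, Mup5 and Mup6 are too low to be seen.

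Of the 8 nearest tested genes on each side of the cluster, 16 in all, 2 were called lower and 3 higher, against 14.9% and 15.2% of all tested genes, so that their count is near the background. Their median log2 change was 0.06. On the Mup21 side Alad, an enzyme of haem synthesis, changed by -0.42 ± 0.09 and Hdhd3 by -0.50 ± 0.14 (SE), at distances of 355 and 348 kb from the cluster. The call of Hdhd3 was lost under 7 of 24 alternatives, among them without cKO replicate 1, WT replicate 1 or WT replicate 3. That of Alad was lost under 3 of 24. The zinc finger gene Zfp37, 38.7 kb from Mup21, was higher by 1.25 ± 0.44, at 0.389 ± 0.0869 CPM in cKO and 0.162 ± 0.116 CPM in WT (SD, n = 4 each). Its adjusted p of 0.0497 rose to between 0.0551 and 0.127 without any 1 library but WT replicate 4. On the Mup4 side Ugcg, which makes glucosylceramide, and Ptbp3, an RNA-binding protein, were higher by 0.35 ± 0.09 and 0.43 ± 0.10.

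Genes outside the Mup family whose centred log2 CPM profile over the 8 libraries was most like that of a member were found among 9117 genes of at least 5 CPM, by the root mean square difference. For Mup3 they were Aox3, an aldehyde oxidase, Slc22a30, a solute carrier, and 9030622O22Rik, at 0.16 log2 units each, against a median of 0.73 over all genes. For Mup20 they were Obp2a, itself a lipocalin, Il1r1, a receptor of interleukin 1, and the acute-phase gene Saa3, at 0.24 each (median 0.69). For Mup21 they were Elovl3, a fatty acid elongase, at 0.41, Cyp7b1, an oxysterol hydroxylase, at 0.57, and Wfdc2 at 0.60 (median 1.37). Elovl3 and Cyp7b1 are male-biased liver genes and changed by -2.10 ± 0.41 and -1.69 ± 0.46 (SE), with the call of Cyp7b1 lost without any 1 cKO library or WT replicate 3. Among the members, Mup20 was nearer to Mup6 (0.31) than to Mup3 (0.42) and Mup21 (0.79).

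Male-biased liver genes outside the Mup family were set beside the members, since the Mup genes belong to that class. Of 25 such genes tested, 14 were lower and 0 were higher, against 14.9% and 15.2% of all tested genes. Their median log2 change was -0.84, against -0.01 over all genes. Hsd3b5, a steroid dehydrogenase, had 0.310 ± 0.271 CPM in cKO and 14.9 ± 4.11 CPM in WT, a log2 change of -5.58 that exceeds those of the members. The carboxylesterase Ces3a changed by -0.96 ± 0.09, the sulfotransferase Sult2a8 by -0.84 ± 0.09 and Cspg5 by -1.73 ± 0.24 (SE). Of 18 female-biased genes tested, 5 were higher and 1 was lower, against 15.2% and 14.9% of all tested genes, with a median of 0.54. Cyp2a4, a female-biased cytochrome P450, had 27.7 ± 3.82 CPM in cKO and 1.78 ± 0.756 CPM in WT (SD, n = 4 each). Rtn4 and Hao2 were higher by 1.17 ± 0.10 and 4.18 ± 0.57, and Cyp2g1 was lower, by -1.21 ± 0.16 (SE).

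Of 17 genes of growth hormone and STAT5 signalling, the pathway that drives Mup expression in males, 2 were lower and 0 higher, against 14.9% and 15.2% of all tested genes, with a median of -0.21. These counts are no more than the background. The 2 lower genes were Igfals, the carrier subunit of circulating IGF-1, at -0.83 ± 0.10 and Igf1 at -0.36 ± 0.07 (SE). Socs2, Cish and Socs3 of the same list changed by -1.16, -0.21 and -0.14 and were not called (adjusted p = 0.120, 0.825 and 0.783). Onecut1 stood higher by 0.49, also without a call (adjusted p = 0.165). Of 28 transcription factors known to act on Mup or hepatocyte genes, 7 were lower and 3 higher, against the same shares of all tested genes, with a median of -0.16. The circadian factors Dbp and Tef changed by -0.41 ± 0.09 and -0.32 ± 0.08, the bile acid receptor Nr1h4 by -0.37 ± 0.09, and Nfib by 0.29 ± 0.07 (SE). On TPM, the calls of Dbp, Tef and Nr1h4 were lost.

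Of 16 other lipocalins and secreted carriers tested, 5 were lower and 0 higher, against 14.9% and 15.2% of all tested genes. Their median log2 change was -0.22. Ambp, a lipocalin precursor, had 1512 ± 45.3 CPM in cKO and 2338 ± 124 CPM in WT, and Ttr, the thyroid hormone carrier transthyretin, 4766 ± 688 CPM in cKO and 7621 ± 941 CPM in WT (SD, n = 4 each). Fabp1, the liver fatty acid binding protein, changed by -0.52 ± 0.11 and C8g, a lipocalin of complement, by -0.25 ± 0.07 (SE). The call of Fabp1 was lost under 2 of 24 alternatives and that of C8g under 3. The 5 called changes lay between -0.68 and -0.25.

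Markers of stellate cells and fibroblasts moved with the groups. The part of any cell type in the fall of the Mup genes was not tested. Stellate cell and fibroblast genes were higher in cKO for 12 of the 12 listed, against 15.2% of all tested genes, and their summed level was 325 to 437 CPM in cKO and 153 to 170 CPM in WT. Lrat, Dcn, Pdgfra and Lum were higher by 1.45 ± 0.09, 1.57 ± 0.10, 1.63 ± 0.13 and 1.89 ± 0.15 (SE). Of 11 hepatocyte markers, 6 were lower and 1 higher, against 14.9% and 15.2% of all tested genes, with a median of -0.25. Their summed level, of which albumin is the largest part, was 100667 to 113121 CPM in cKO and 88211 to 116639 CPM in WT. Among them Ttr was lower by -0.68 ± 0.12, Fga by -0.57 ± 0.13, Fgb by -0.46 ± 0.12 and Serpina1a by -0.41 ± 0.11, and the calls of Fga, Fgb and Serpina1a were lost on TPM under 2 or 3 of the 3 settings. Albumin had 65948 ± 5499 CPM in cKO and 59650 ± 13066 CPM in WT (SD, n = 4 each, adjusted p = 0.482). Of the 10 cholangiocyte markers tested 4 were higher and 1 lower, against 15.2% and 14.9% of all tested genes. Higher calls numbered 4 of 12 for lymphocyte markers, 3 of 12 for Kupffer cell markers and 1 of 12 for endothelial markers. The Kupffer cell and endothelial counts are near or below the background, and the median of the Kupffer cell markers was -0.04. Of 5 erythroid markers tested none was called, and of 2 exocrine pancreas markers tested 2 were lower, with 5 of 10 on that list at 0 counts in every library.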

How the data were processed

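The data are liver RNA-seq libraries, made from total RNA extracted with Trizol and a TruSeq kit, per the labels' protocols. Reads were processed with STAR 2.5.1 and RSEM on mm10, per the submitters' processing notes. The deposited tables hold RSEM expected counts per gene, which are estimates that divide shared reads between genes, together with TPM, FPKM and effective lengths. The authors' TPM values were used for levels per length and as an alternative, and the deposited FPKM values were not used.

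Members were matched by the symbol in the gene identifier. Expected counts were rounded and fitted with edgeR 4.0.16 (R 4.3.3): genes kept by a minimum count of 10 and a total of 15, TMM scaling, robust quasi-likelihood test, Benjamini-Hochberg adjustment over the 15562 genes tested, threshold 0.05. CPM use the TMM-scaled library sizes. The other 15 Mup genes were summed before a fit of their own. Log2 ratios were tested by exact permutation. The fit was tested on simulated counts. Alternatives with DESeq2 1.42.0, limma 3.58.1 (log2 of TPM with a pseudocount of 1 or 0.1, filter of mean TPM 0.5), other scalings and filters, and each library left out are given in the closing section.

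The members and gene lists were chosen with earlier results of these data known. Genes named from a list are the 4 with the smallest p among those called. The sequence stretches, the motif and uniqueness counts and the choice of Mup7 and Mup11 as central copies were made after seeing the data. Sequences came from GENCODE M1 transcripts, matched by transcript identifier, and RefSeq promoter windows. The precision of low counts is limited by the depth of 43.9 to 57.3 M (1e6) counts per library. No pairing by replicate number was used in the main fit.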

Additional observations from a re-analysis of the deposited data

Results flagged for a closer look

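Of 10 groups of 4 libraries checked for a library apart from the rest, by Dixon's ratio at the 95% level, 2 had one, and chance alone marks about 1 in 20 groups. Mup3 had 4767 CPM in cKO replicate 2, against 3471 to 3683 CPM in the other 3 cKO libraries. The summed other Mup genes had 1170 CPM in the same library, against 546 to 636 CPM in the other 3. Both values stayed below the lowest WT library, at 9122 CPM for Mup3 and 3348 CPM for the sum. In the same library Mup21 had 46.5 CPM, the highest of the cKO group, and Mup20 had 2510 CPM, within the narrow cKO range. Without cKO replicate 2 the log2 change was -1.52 for Mup3 and -3.71 for the sum.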

How the results depend on the processing

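Mup3, Mup21 and the summed other Mup genes kept their direction and their call under each of 24 or 25 alternatives, with log2 changes of -1.52 to -1.23, -2.86 to -2.22 and -3.71 to -2.91. Adding the pseudogenes to the sum was an alternative chosen after seeing the data. Mup6 kept its call in the 23 alternatives that tested it (-1.56 to -0.53, the smallest on log2(TPM + 1)). Mup20 lost its call with no filter (-1.18), on log2(TPM + 0.1) and on unfiltered log2(TPM + 1) (-0.89 each), and when single libraries were left out the range was -1.41 to -0.92. The labels do not say whether the replicate numbers pair the libraries. The correlations of same-numbered libraries, 0.042 to 0.057, were positive but under 0.1, which cannot decide it. The cKO replicates 1, 3 and 4 correlated best with their own number and cKO replicate 2 with WT replicate 4, a hint from the data and not from the design. With the number as a block Mup20 had a log2 change of -1.08 with its call lost, 8 of the 15 other Mup genes were called, and the other members kept theirs. The log2 ratio to the other Mup genes ranged with single libraries left out from 1.47 to 2.14 for Mup3 and from 0.59 to 1.04 for Mup21, by exact permutation tests that can give no p below 0.0286. Its sign held for each of the 4 members in each alternative. Genes called higher and lower over the whole table numbered 3604 and 1318 with library size alone. The lower calls were 793 on log2(TPM + 1), 737 on log2(TPM + 0.1) and 675 without a filter, and 1624 to 2486 with 1 library left out. The median of all genes moved to 0.115 and 0.146 on the filtered TPM scales. For the 58 named genes that are not members, 113 of 1369 values lost their call, 8 gained one and 0 changed sign. The causes were not tested. Depth limits Mup4 and Mup5, and Mup6 rests on 12 to 55 counts per library.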
